A study of Nothobranchius furzeri with 8 samples.

Results

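Female and male brains of the African turquoise killifish were compared for the abundance and the charging of their tRNAs. All 8 brains of the tRNA-seq series entered the comparison, 4 from females and 4 from males, and the sex was taken from the sample labels. Each sex held 2 young brains at 5 weeks post hatching (wph) and 2 old brains at 39 wph, which made 4 groups of 2 brains called young male, young female, old male and old female. In the extraction notes the old animals are 39 to 40 weeks old. Unless otherwise stated, the study's fish were of the strain MZM-0410. The name GRZ in the deposited row names is part of the names of the reference tRNAs. The labels name no treatment, and according to the methods each sample was the snap-frozen brain of 1 fish. Whole brains were extracted, so that the cells of all brain regions contributed to each value and a change in the number of cells of a type cannot be told apart from a change in tRNA per cell.

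Transfer RNAs carry amino acids to the ribosome, where the anticodon pairs with the codon of the mRNA. Aminoacyl-tRNA synthetases attach the amino acid to the last adenosine of the CCA end that every mature tRNA has, and only such a charged tRNA can be used in translation. Mitochondria read their own few mRNAs with a separate set of tRNAs that is encoded in the mitochondrial genome, charged inside the organelle and, in vertebrates, split between the heavy and the light strand of that genome. The brain relies heavily on mitochondrial respiration, and defects of mitochondrial tRNAs and of tRNA synthetases are known causes of neurological disease in humans.

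The assay reads charging from the 3′ end of the tRNA. Mild acid preserved the bond to the amino acid, and oxidation with β-elimination then took the last nucleotide from tRNAs that carried none, so that charged tRNAs were read as CCA and uncharged ones as CC. The charged share was the percentage of CCA among CCA and CC reads. The deposited counts covered 49 nuclear and 23 mitochondrial anticodons, 72 in all, and the prefix mt- marks the mitochondrial ones. The E. coli spike-in was left out. The brains held between 712402 and 3097050 reads of killifish tRNA, and the widest 95% Wilson interval of a charged share of a whole brain was 0.251 points for nuclear and 0.838 points for mitochondrial tRNAs. These intervals cover counting error only and leave out the variation between brains. Since PCR copies of a molecule are counted as separate reads, they can be too narrow even for counting error. The 2 brains of a group differed beyond sampling noise in every group, with a chi-square per degree of freedom, which grows with depth, of 442 in old females, 155 in old males, 90.8 in young males and 60.6 in young females. The median gap between the 2 brains over anticodons was similar in old females and old males for abundance, at 0.0909 and 0.0930 points of the reads.

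No difference between the sexes passed the test in any whole-brain measure. The charged share of nuclear tRNAs was 70.1 and 60.0% in the young males and 66.8 and 60.4% in the young females. It was 51.7 and 56.5% in the old males and 43.7 and 63.8% in the old females. The 2 old females thus held the lowest value of the series and a value within the range of the young brains. The mean was 58.7% ± 10.3 in females and 59.6% ± 7.78 in males (SD, n = 4 per sex), and the difference of −0.936 points had a two-sided exact permutation p of 0.833 over the 36 ways to exchange the sexes within an age. The smallest p that these relabellings can give is 0.0556, so that no whole-brain measure could reach 0.05. The sign of the difference rested on single brains: it was 4.07 points without old female 1 and −5.95 points without old female 2.

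The charged share of mitochondrial tRNAs was higher than that of nuclear tRNAs in every brain and varied less. It was 76.9 and 70.5% in young males, 76.1 and 70.9% in young females, 76.0 and 71.4% in old males, and 76.9 and 77.7% in old females. The young groups overlapped, and both old females lay above both old males. The female mean was 75.4% ± 3.06 and the male mean was 73.7% ± 3.20 (SD, n = 4 per sex). The difference of 1.68 points had an exact permutation p of 0.389, and leaving out single brains gave 0.0805 to 3.28 points. It was −0.209 points in young and 3.57 points in old brains, and the change of the difference with age had an exact permutation p of 0.333. Exchanging the sexes within an age assumes no sex difference at either age, so that this p does not test the change with age alone.

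Mitochondrial tRNAs took a similar share of the reads in both sexes. They made up 8.60 and 7.84% of the reads in young males, 8.24 and 8.78% in young females, 10.05 and 8.32% in old males, and 9.01 and 9.13% in old females. The values of the old females lay between those of the old males. The means were 8.79% ± 0.396 in females and 8.70% ± 0.95 in males (SD, n = 4 per sex), with an exact permutation p of 0.889. Nuclear reads that ended in C, one nucleotide shorter than those of uncharged tRNAs, amounted to 11.7% ± 8.66 in females and 9.54% ± 3.59 in males, with an exact permutation p of 0.778. The female value was set by old female 1, where 24.6% of the nuclear reads ended in C. Without this brain the difference of 2.16 points became −2.30 points. The C ends ran opposite to the nuclear charged share: young male 1 had the fewest (4.87%) and the highest charged share, old female 1 the most and the lowest charged share, and the other brains lay between in reverse order except for young male 2 and young female 2 (8.58 and 9.20%). How far the C ends account for the charged shares was not tested.

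**Figure D1:**
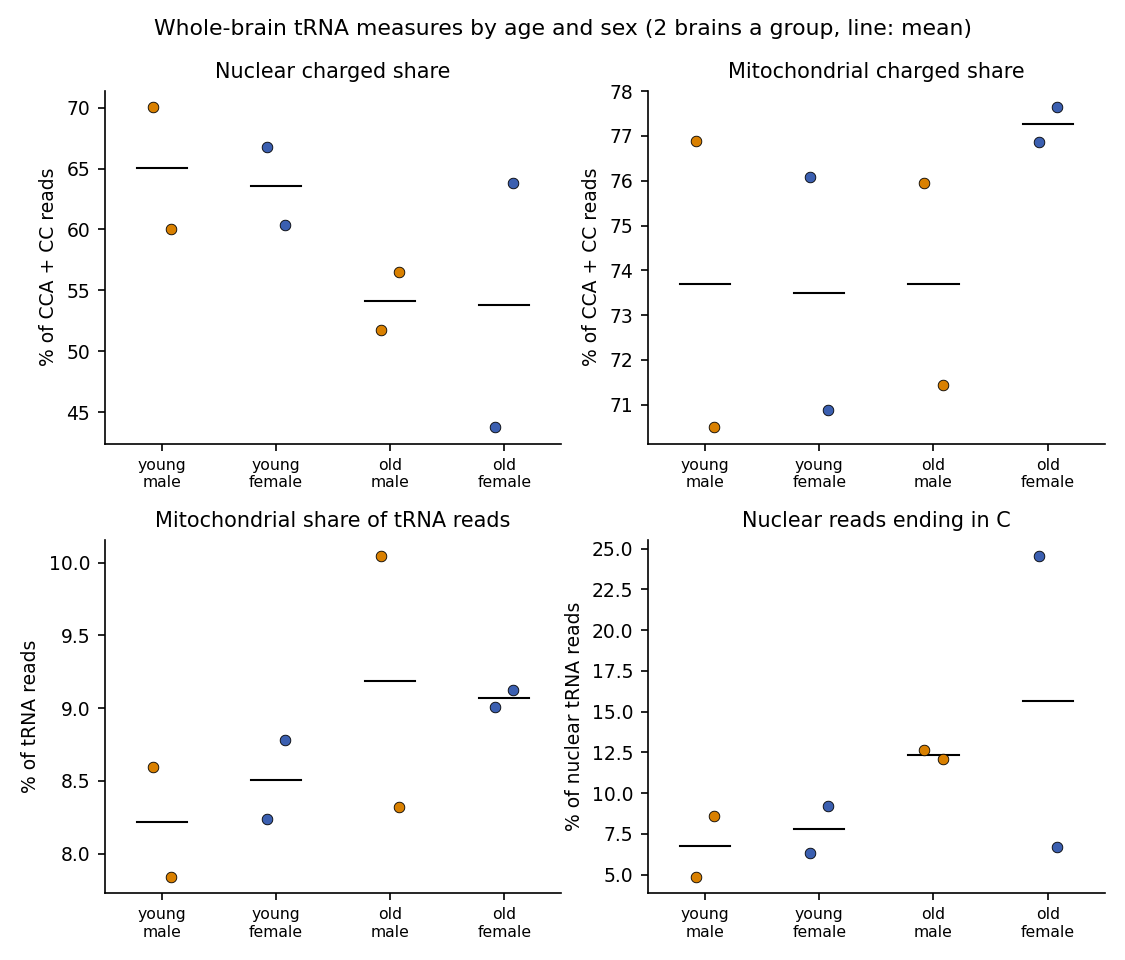
Each point is 1 brain and each line the mean of the 2 brains of a group, males in orange and females in blue; the y axes give percentages and do not start at 0. The nuclear charged shares of the 2 old females, 43.7 and 63.8%, enclose those of the old males, and no panel separates all females from all males.

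Single anticodons were then compared for abundance in edgeR (quasi-likelihood test on TMM-scaled counts), with age and sex as factors. Of the 72 anticodons, 69 had at least 10 counts in at least 4 brains, which were 47 nuclear and 22 mitochondrial ones. With Benjamini-Hochberg adjustment, 0 of 69 anticodons differed between the sexes (0% called), and the lowest adjusted p was 0.855. At an unadjusted p under 0.05, edgeR called 3 anticodons (4.35% of those tested) and DESeq2 called 4, of which 0 passed after adjustment. The same edgeR fit called 13 of the 69 anticodons for age (18.8%), 10 mitochondrial and 3 nuclear.

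The estimates were small and their intervals narrow. The log2 ratio of female to male abundance lay between −0.22 for mt-Ser-GCT and 0.20 for Val-AAC, with a median of −0.02. The median half-width of the 95% intervals was 0.18 on the log2 scale. Abundance was measured relative to the other tRNAs of a brain, so that a difference in total tRNA between the sexes would not show. For 68 of the 69 anticodons the whole interval lay within a 1.5-fold difference in either direction. The exception was mt-Met-CAT, the only methionine tRNA of the mitochondrial set, with a log2 ratio of −0.21 ± 0.19 (SE) and an interval down to −0.64. Its share of the reads was 0.0207% in old male 1 and between 0.00810 and 0.0135% in the other 7 brains, and without old male 1 its log2 ratio became 0.04.

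**Figure D2:**
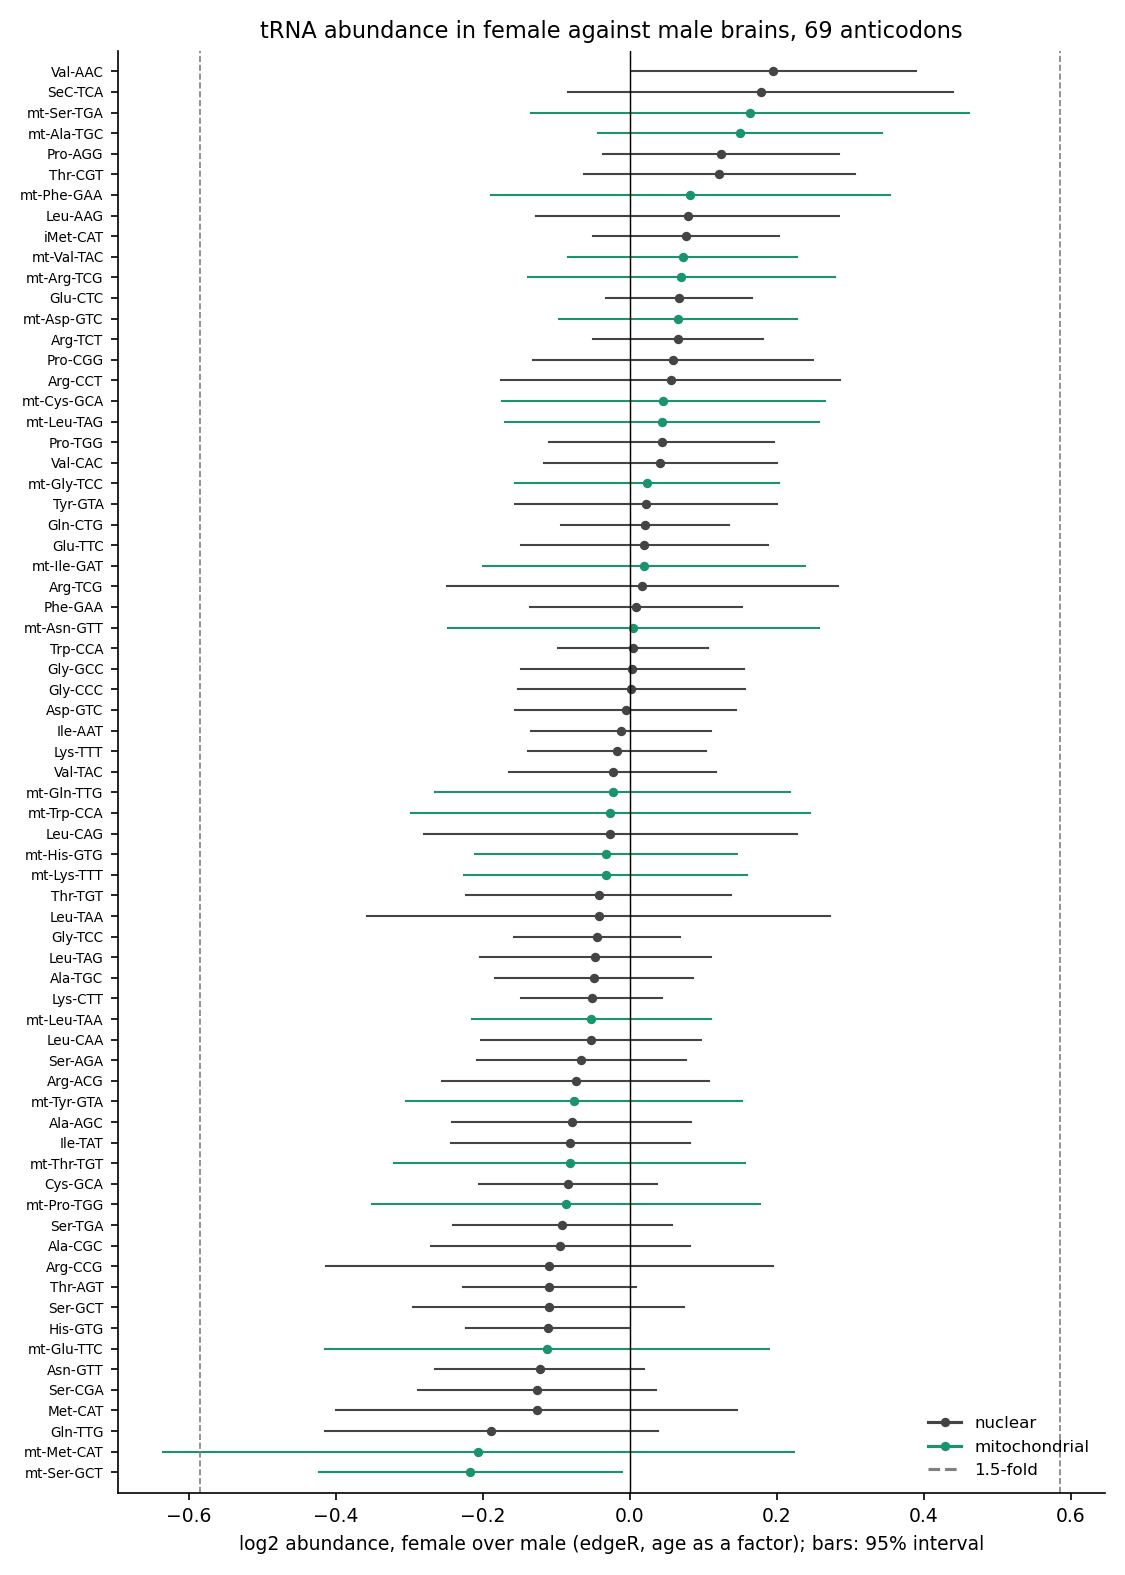
The log2 ratio of female to male abundance of each of the 69 anticodons tested (points) is drawn with its 95% interval (bars), nuclear anticodons in grey and mitochondrial ones in green. The points run from −0.22 to 0.20, and 68 of 69 intervals stay between the dashed lines at a 1.5-fold difference.

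The anticodons with the smallest p-values are given with the value of each brain as a percentage of all killifish tRNA reads. Val-AAC, a valine tRNA, made up 1.92 and 1.79% of the reads in young males, 2.00 and 1.99% in young females, 1.58 and 2.01% in old males, and 2.35 and 2.14% in old females. Both females were above both males at each age, although old male 2 exceeded the young females. The log2 ratio was 0.20 ± 0.09 (SE), a female level of 1.14 times the male one, with an edgeR p of 0.0488 and an adjusted p of 0.855. His-GTG, the only nuclear histidine anticodon tested, stood at 2.15 and 2.22% in young males, 1.97 and 2.03% in young females, 2.39 and 2.52% in old males, and 2.36 and 2.34% in old females. Here both females lay below both males at each age, with a log2 ratio of −0.11 ± 0.05, an edgeR p of 0.0497 and an adjusted p of 0.855.

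The mitochondrial anticodon with the smallest p was mt-Ser-GCT, one of the 2 mitochondrial serine tRNAs. Its share was 0.474 and 0.496% in young males, 0.397 and 0.467% in young females, 0.647 and 0.588% in old males, and 0.463 and 0.588% in old females. The females were lower at each age, but the value of old female 2 was below that of old male 2 only in a further digit. The log2 ratio was −0.22 ± 0.09, with an edgeR p of 0.0410 and an adjusted p of 0.855. The other mitochondrial serine tRNA, mt-Ser-TGA, had a ratio of the opposite sign, 0.16 ± 0.13, and mt-Ala-TGC and mt-Val-TAC had ratios of 0.15 ± 0.09 and 0.07 ± 0.07. Among the nuclear anticodons, Thr-AGT, Asn-GTT and Gln-TTG had log2 ratios of −0.11 ± 0.05, −0.12 ± 0.06 and −0.19 ± 0.10, each with an adjusted p of 0.855.

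Counted over all anticodons tested, both females lay above or both below both males at each age for 7 of 69 anticodons (10.1%). The 3 with higher values in females were Val-AAC, Arg-TCT and mt-Ala-TGC, and the 4 with lower values were His-GTG, Thr-AGT, Ser-CGA and mt-Ser-GCT. For mt-Ala-TGC this held only in the counts per anticodon, with 1366 to 8080 reads per brain. In the counts per transcript and 3′ end, mt-Ala-TGC-1 had 542 to 2583 reads. There the sexes overlapped at both ages, with means of 0.0784% in females and 0.0779% in males. The values of Arg-TCT, an arginine tRNA, were 1.26 and 1.34% in young males against 1.37 and 1.36% in young females, and 1.44 and 1.37% in old males against 1.51 and 1.504% in old females. Those of Thr-AGT were 2.37 and 2.34% against 2.29 and 2.23% in young brains, and 2.16 and 2.28% against 2.09 and 1.98% in old brains, males first. The gaps were small beside the levels of these tRNAs. For 0 of 69 anticodons did all 4 females lie above or below all 4 males. Within one age the sexes were apart for 26 anticodons in young (37.7%) and 14 in old brains (20.3%). With 2 brains per sex at an age, such gaps arise readily by chance.

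Among the groups of nuclear anticodons, 9 of the 12 polar ones had an abundance ratio below 0, and 0 of these 12 had an unadjusted p under 0.05 in edgeR. A ratio below 0 was also found for 27 of the 47 nuclear and 38 of all 69 anticodons. The medians of the log2 ratios were 0.02 for the 3 acidic, −0.04 for the 8 basic, −0.09 for the 12 polar and −0.01 for the 23 hydrophobic nuclear anticodons, beside −0.02 over all anticodons. The 4 anticodons whose first base can be replaced by queuosine, those for asparagine, aspartate, histidine and tyrosine, had a median of −0.06. Of the 22 mitochondrial anticodons, 11 had a ratio above 0 and 11 below. The median was −0.01 for the 8 light-strand tRNAs, and it was 0.00 for the 14 heavy-strand tRNAs.

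**Figure D3:**
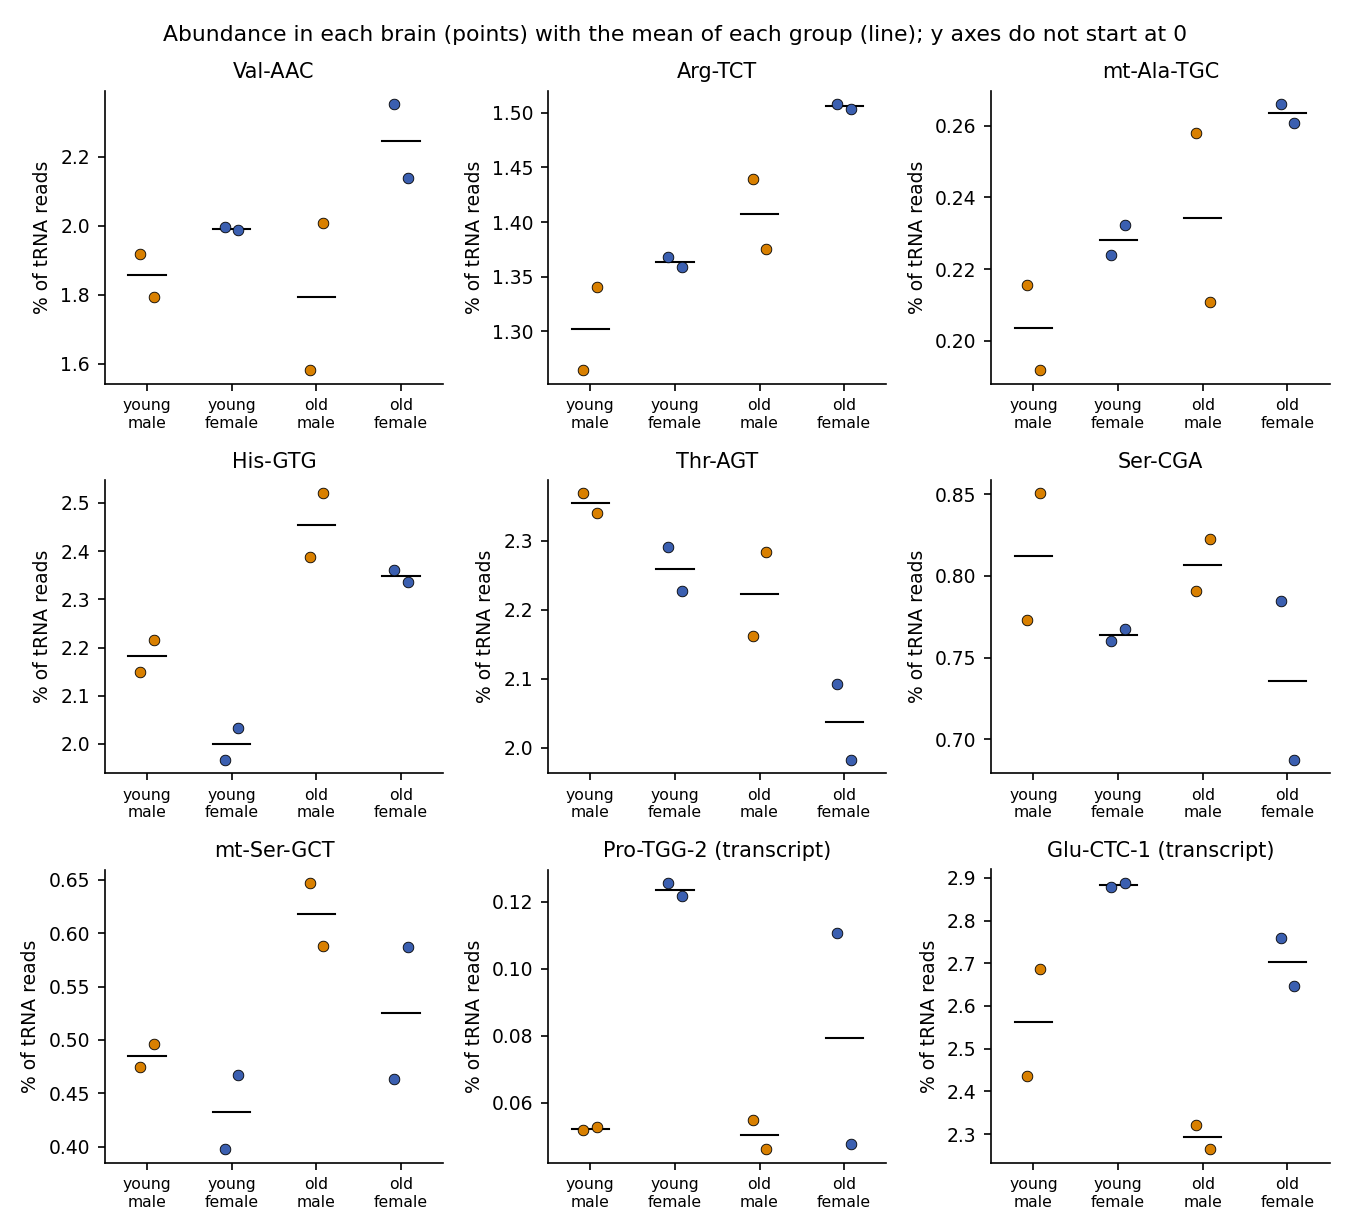
Each point is 1 brain, given as a percentage of killifish tRNA reads, and each line the mean of a group of 2 brains, males in orange and females in blue; the first 7 panels show anticodons whose sexes do not overlap at either age and the last 2 show single transcripts. Pro-TGG-2 lies between 0.111 and 0.126% in 3 females and between 0.0460 and 0.0548% in the males and old female 2. In the counts per transcript, not drawn here, the sexes overlap at both ages for mt-Ala-TGC.

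Several tRNA transcripts with different bodies can share an anticodon, and a second table gave the counts of 89 transcripts or clusters of transcripts that could not be separated. Of these, 88 had enough counts, and 0 differed between the sexes after adjustment in edgeR (0% called), while 6 had an unadjusted p under 0.05 (6.82%). The estimates reached further than those of whole anticodons, from −0.46 to 0.94. Both females lay above or both below both males at each age for 9 of the 88 transcripts (10.2%), and all females above all males for 2 (2.27%), Val-AAC-1 and Arg-TCT-3. The transcripts described here were chosen after their values were seen. Reads of transcripts this alike can be assigned to the wrong member, so that levels within an anticodon are less certain than their sum.

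The highest estimate belonged to Pro-TGG-2, a minor proline tRNA transcript with between 371 and 2873 reads per brain. It made up 0.0517 and 0.0526% of the reads in young males, 0.126 and 0.122% in young females, 0.0548 and 0.0460% in old males, and 0.111 and 0.0477% in old females. In all, 3 females stood well above every male, and old female 2 lay within the range of the 4 males. Within the reads of the anticodon, its share was 15.2, 14.7, 11.7 and 5.66% in the 4 females and between 5.20 and 6.91% in the males. The log2 ratio was 0.94 ± 0.25 with an edgeR p of 0.00372 and an adjusted p of 0.275. The anticodon as a whole did not follow, since Pro-TGG-1 makes up most of it, and its log2 ratio was 0.04 ± 0.07.

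The transcripts of Glu-CTC, a glutamate anticodon, showed ratios of both signs. Glu-CTC-1 took 56.1, 59.4, 56.2 and 58.5% of the reads of the anticodon in the males and 63.7, 64.7, 62.4 and 59.7% in the females. All 4 females lay above all 4 males, the closest being old female 2 and young male 2. Such a separation was found for 3 of the 37 transcripts that share an anticodon with another (8.11%), the others being Trp-CCA-1 and Trp-CCA-2, whose shares of one anticodon mirror each other (67.5% ± 0.15 in females and 68.3% ± 0.55 in males for Trp-CCA-1). The log2 ratio of abundance was 0.19 ± 0.05 for Glu-CTC-1 and −0.46 ± 0.17 for Glu-CTC-3, with adjusted p-values of 0.275 and 0.619 in edgeR, and 0.07 ± 0.04 for the anticodon as a whole.

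Charging was compared for the 64 anticodons with at least 100 CCA and CC reads in every brain, 47 nuclear and 17 mitochondrial ones, by fitting the pair of counts in edgeR with 1 effect per brain. After adjustment 0 of 64 anticodons differed between the sexes (0% called). At an unadjusted p under 0.05, 0 were called by edgeR and 0 by limma on log2 odds. With CCA set against all other ends, C ends included, edgeR also called 0 of 64, adjusted or unadjusted. The same edgeR fit called 1 of the 64 anticodons for age (1.56%). Its age estimates were below 0 for all 47 nuclear anticodons, with a median of −0.69. Of the 17 mitochondrial ones, 12 were above 0 and 5 below, with a median of 0.06. The study itself reports a global decrease of tRNA charging with age. The intervals were wide here. The median half-width of the 95% interval was 0.75 on the scale of the log2 odds, and only 2 of the 64 intervals lay within 1.5-fold. A 1.5-fold difference in the odds was therefore not detectable for most anticodons with 4 brains per sex. This fit, and the charging fit of the change with age below, pooled the spread over anticodons that share the shifts of their brain. Their intervals, SEs and p-values can therefore be too small. Between the 2 brains of a group, the charged share differed by a median over anticodons of 18.5 points in old females, 4.03 points in old males, 5.78 points in young females and 8.04 points in young males.

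The lowest estimates of the charging fit all belonged to tRNAs for hydroxyl amino acids. Ser-TGA was charged to 71.5 and 49.9% in young males, 58.6 and 44.0% in young females, 38.1 and 58.6% in old males, and 40.1 and 40.0% in old females. The males spanned the whole range, with 1 high and 1 low brain at each age, and the females lay inside it. The log2 odds differed by −0.53 ± 0.41 (SE), with an edgeR p of 0.192 and an adjusted p of 0.997. The estimates were −0.46 ± 0.42 for Ser-GCT, −0.44 ± 0.34 for Ser-CGA, −0.43 ± 0.41 for Ser-AGA and −0.44 ± 0.42 for Thr-AGT. Single brains moved these values by more than 1.5 times. Ser-TGA was at −0.25 without young male 1, −0.30 without old male 2 and −0.79 without young male 2, and without young male 1 the other 4 lay between −0.18 and −0.23.

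Summed over the anticodons of an amino acid, the nuclear serine tRNAs were charged to 67.5 and 47.7% in young males, 55.3 and 43.2% in young females, 35.9 and 54.3% in old males, and 36.9 and 39.2% in old females. The differences between the mean of the females and that of the males were −8.32 points in young and −7.09 points in old brains. For threonine the charged shares were 74.4 and 60.3% in young males, 62.7 and 57.0% in young females, 54.0 and 67.6% in old males, and 55.1 and 56.9% in old females, with differences of −7.53 and −4.83 points. At both ages the sexes overlapped. The nuclear anticodons for serine, threonine and selenocysteine were grouped after their values were seen, the last because its tRNA is charged with serine first. All 8 had an estimate below 0, with a median of −0.43, and 0 passed the test. Over all 64 anticodons 26 had an estimate below 0, and the median was 0.02.

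Mitochondrial anticodons had mostly positive estimates. Of the 17 with enough CCA and CC reads, which held only 4 of the 8 light-strand tRNAs tested for abundance, 15 lay above 0 and 2 below. Their median was 0.14. Over all 64 anticodons 38 lay above 0, with a median of 0.02. The 2 mitochondrial ones below 0 were mt-Ser-GCT and mt-Thr-TGT, with −0.20 ± 0.30 and −0.19 ± 0.31. The highest was mt-Glu-TTC, charged to 87.3 and 84.7% in young males, 87.2 and 86.6% in young females, 88.9 and 84.5% in old males, and 90.6 and 91.7% in old females. Both old females exceeded every male, and the young females did not. Its log2 odds differed by 0.37 ± 0.29 with an edgeR p of 0.198 and an adjusted p of 0.997. Next came mt-Asp-GTC, mt-Leu-TAG, mt-Lys-TTT and mt-Leu-TAA, with 0.33 ± 0.29, 0.32 ± 0.29, 0.28 ± 0.30 and 0.28 ± 0.32. These too depended on single brains: mt-Glu-TTC fell to 0.21, mt-Asp-GTC to 0.14, mt-Leu-TAG to 0.16, mt-Lys-TTT to 0.17 and mt-Leu-TAA to 0.17 without old male 2. Without old female 2 mt-Leu-TAG and mt-Leu-TAA were at 0.15 and 0.12, and without young male 2 mt-Lys-TTT was at 0.15.

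The charged shares of the 2 sexes overlapped for all 64 anticodons in young brains. In old brains they were apart for 7 (10.9%), all of them mitochondrial and higher in females: mt-Asp-GTC, mt-Gln-TTG, mt-Glu-TTC, mt-Gly-TCC, mt-Leu-TAG, mt-Lys-TTT and mt-Phe-GAA. Among these 7, the means differed most for mt-Asp-GTC, at 70.9 and 60.6% in old males and 75.3 and 74.6% in old females, beside 72.0 and 67.1% in young males and 74.0 and 66.1% in young females. Over the 17 mitochondrial anticodons the old females were higher on average for 16 and the young females for 11. The median difference over all 17 was 3.21 points in old and 0.296 points in young brains. Over the 47 nuclear anticodons the young females were higher for 17 and the old females for 26. The anticodons of a brain share its library, and these counts are therefore not counts of independent tRNAs. The whole-brain mitochondrial charged share, where both old females lay above both old males, pools largely the same reads and is no separate observation. With 2 brains per sex at an age, a lack of overlap within that age arises readily by chance.

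**Figure D4:**
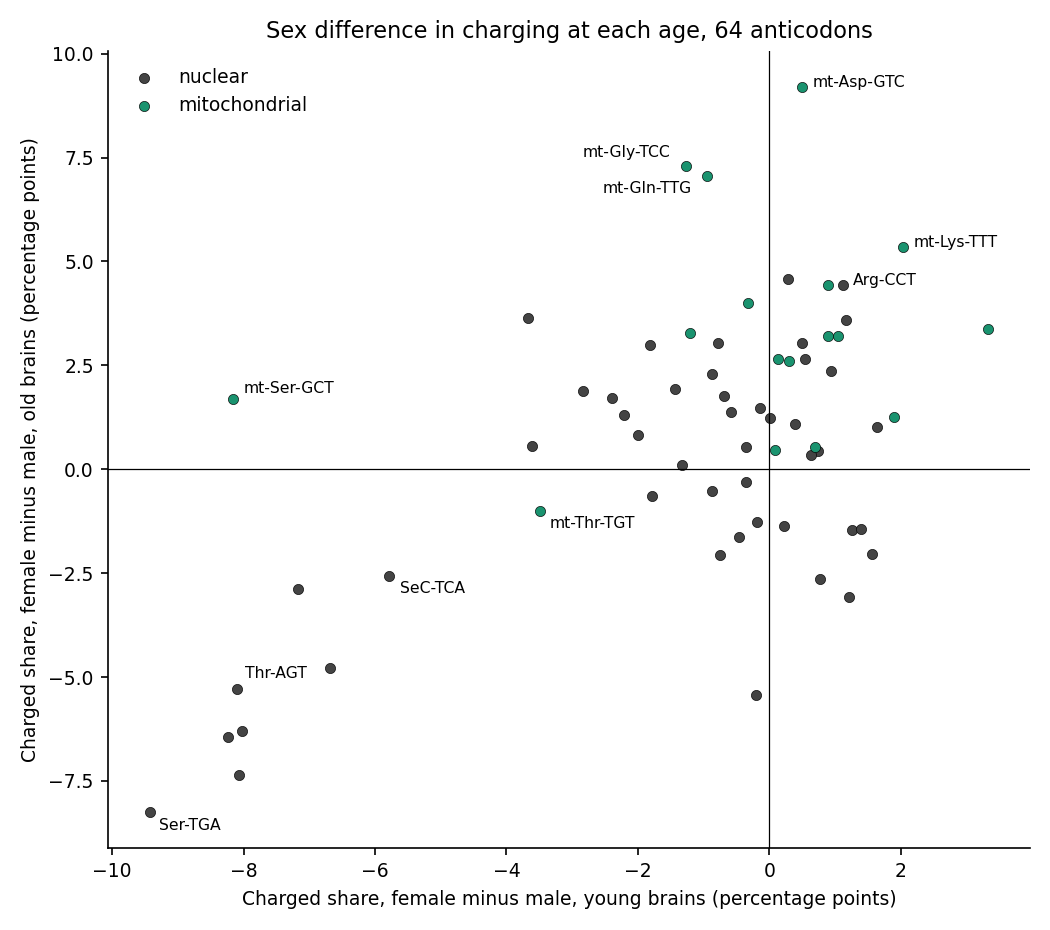
Each point is 1 of 64 anticodons, with the difference between the mean charged share of females and of males in young brains on the x axis and in old brains on the y axis, both in percentage points (nuclear in grey, mitochondrial in green). The cluster at the lower left holds the 8 serine, threonine and selenocysteine anticodons, and 16 of the 17 mitochondrial anticodons lie above 0 on the y axis.

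To take out the shift that all tRNAs of a brain share, the log2 odds of charging were also expressed relative to the median anticodon of the same genome in the same brain and compared with limma. Again 0 of 64 anticodons passed the adjustment (0% called), and 1 had an unadjusted p under 0.05 (1.56%), Arg-CCT, an arginine tRNA. Its relative log2 odds were −0.47 and −0.26 in young males, −0.24 and −0.14 in young females, −0.50 and −0.44 in old males, and −0.20 and −0.13 in old females. All 4 females lay above all 4 males, with a difference of 0.24 ± 0.10 (SE), a limma p of 0.0331 and an adjusted p of 0.662. The charged share itself overlapped, at 64.4, 58.1, 43.9 and 50.5% in the males and 64.5, 60.3, 40.8 and 62.4% in the females, and its difference in log2 odds turned from 0.16 to −0.11 without old female 2.

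On the relative scale, all females lay above all males for 5 of 64 anticodons (7.81%), Arg-ACG, Arg-CCT, Lys-TTT, Gly-GCC and mt-Lys-TTT, and for 0 below. Within one age, where gaps between so few brains arise readily by chance, the sexes were apart on this scale for 23 anticodons in young (35.9%) and 17 in old brains (26.6%). Arg-ACG was at −0.96 and −0.88 in young males, −0.74 and −0.82 in young females, −1.07 and −0.97 in old males, and −0.76 and −0.86 in old females. The sexes came close between old female 2 and young male 2, and the difference was 0.17 ± 0.09 with a limma adjusted p of 0.662. For mt-Lys-TTT the difference was 0.20 ± 0.09, but this anticodon was itself the median of the mitochondrial set in 3 of the males. The differences were 0.29 ± 0.13 for mt-Glu-TTC and 0.25 ± 0.12 for mt-Asp-GTC, both with an adjusted p of 0.662. All 7 arginine and lysine anticodons, grouped after their values were seen, had a relative estimate above 0 with a median of 0.19, and 0 passed the test. Over all 64 anticodons 48 lay above 0, 35 of them among the 47 nuclear ones, with a median of 0.07.

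**Figure D5:**
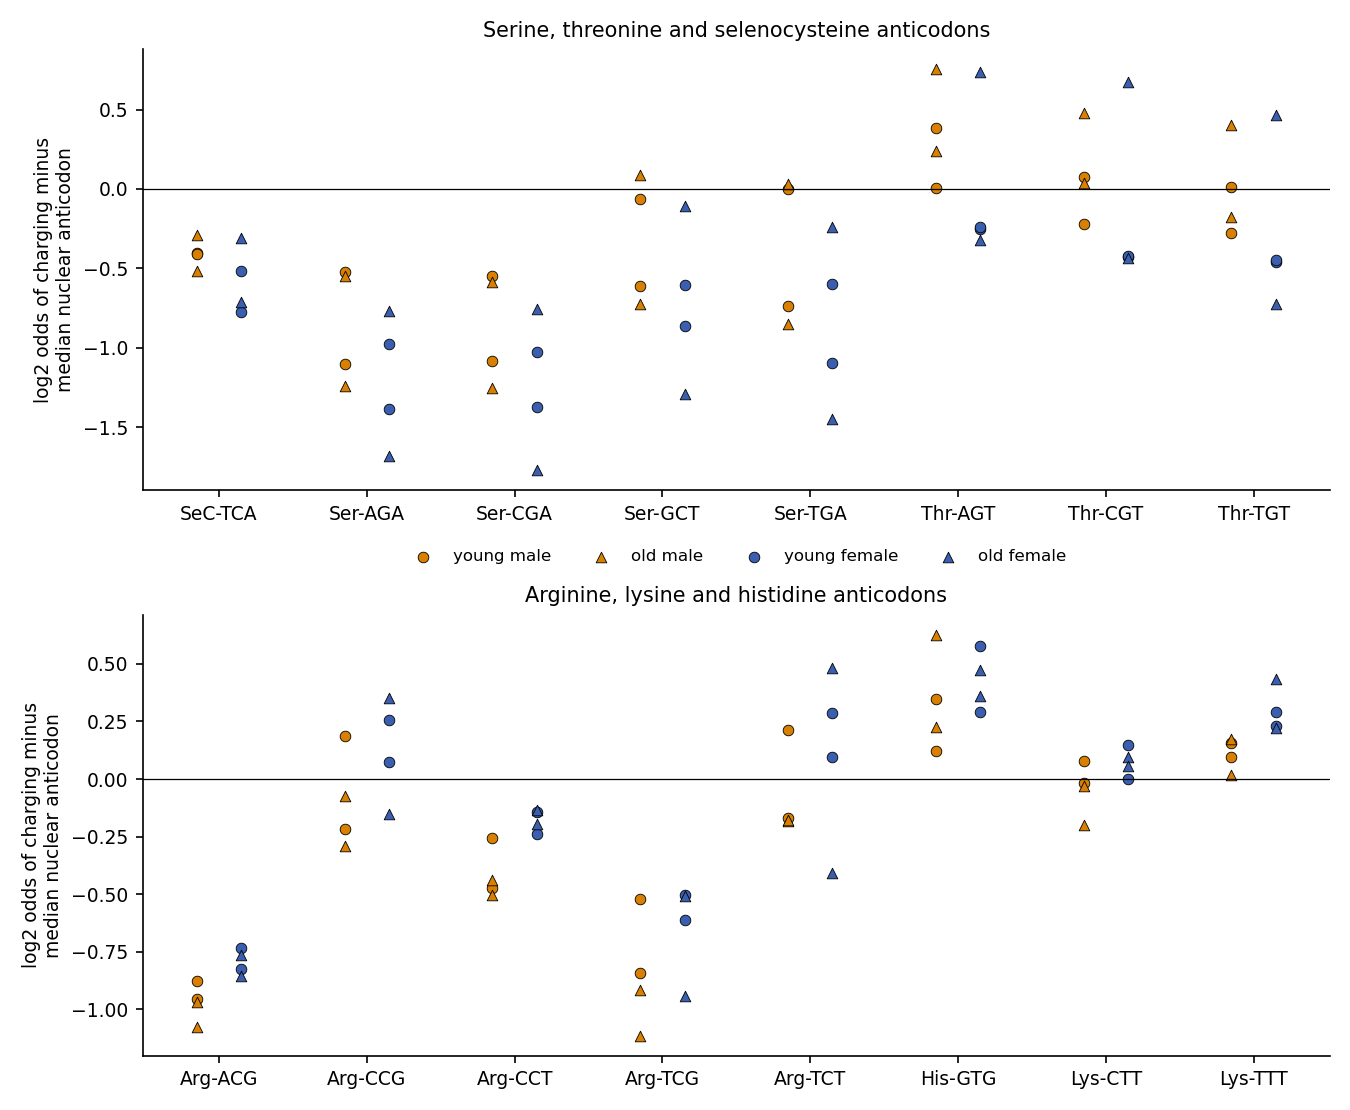
For each nuclear anticodon the 8 brains are drawn as points, males in orange to the left and females in blue to the right, circles for young and triangles for old; the y axis gives the log2 odds of charging minus that of the median nuclear anticodon of the brain. Serine and threonine anticodons spread widely within each sex, and for Arg-ACG, Arg-CCT and Lys-TTT all females lie above all males.

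Whether the difference between the sexes changed with age was tested with an interaction term. For abundance, 0 of 69 anticodons passed the adjustment in edgeR (0% called, lowest adjusted p 0.947), and 2 had an unadjusted p under 0.05 (2.90%), with 2 also called by DESeq2. Arg-TCG, an arginine tRNA, made up 1.296 and 1.27% of the reads in young males, 1.55 and 1.59% in young females, 1.36 and 1.75% in old males, and 1.39 and 1.28% in old females. Young females were higher than young males, and the old sexes overlapped. The log2 ratio of female to male fell by 0.54 from young to old brains (SE 0.18), with an edgeR p of 0.0138 and an adjusted p of 0.947. Ala-AGC, an alanine tRNA, had a ratio that fell by 0.29 (SE 0.12), with an edgeR p of 0.0355 and an adjusted p of 0.947. The 3 anticodons with the next smallest p-values, mt-Ser-TGA, Thr-CGT and mt-Gln-TTG, changed by −0.48 ± 0.24, 0.30 ± 0.16 and −0.37 ± 0.20.

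For charging, 0 of 64 interaction terms passed in edgeR (0% called), and 0 had an unadjusted p under 0.05 in edgeR or in limma. The 5 smallest p-values were all mitochondrial, and each estimate was about as large as its SE. They were 0.65 ± 0.62 for mt-Gly-TCC, 0.59 ± 0.62 for mt-Asp-GTC, 0.60 ± 0.65 for mt-Ser-GCT, 0.56 ± 0.62 for mt-Leu-TAG and 0.53 ± 0.62 for mt-Glu-TTC. With 2 brains in a group, 51 of the 69 intervals for abundance and 0 of the 64 for charging lay within a 1.5-fold change of the sex difference.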

How the data were processed

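The authors used cutadapt 3.5 for trimming and demultiplexing and mim-tRNAseq 1.3.8 for alignment and counting, with mismatch limits of 0.1 and 0.075 and no more than 8 alignments of a read. The cluster identity is 0.95 in the methods and 0.97 in the column names. One of 8 barcoded adapters was ligated to each brain before pooling. The labels and methods name no batch, and none was put into the main fits. An effect of the adapter, or of the steps before pooling, cannot be told apart from a difference between brains. The deposited values are raw counts per anticodon and per transcript and 3′ end. A further deposited column, of another unit, gives the number of tRNA genes per anticodon and was not tested. There were 0 unused per-sample columns.

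Here R 4.3.3 and Python 3.11.15 were used (scipy 1.17.1, numpy 2.4.6, matplotlib 3.10.9, pandas 2.3.3). Counts were fitted with edgeR 4.0.16 (quasi-likelihood, TMM, age plus sex). CCA and CC counts were fitted with an effect per brain, end by age and end by sex, and 1 library size for both. Relative log2 odds (pseudocount 0.5) were fitted with limma 3.58.1. Low filters were 10 counts in 4 brains for abundance and 100 CCA plus CC reads in every brain for charging. For abundance these left out 3 anticodons (Cys-ACA, Phe-AAA and mt-Gln-CTG). For charging they left out 6 mitochondrial anticodons, among them the rare mt-Met-CAT and mt-Gln-CTG. The others were mt-Ala-TGC, mt-Asn-GTT, mt-Cys-GCA and mt-Ser-TGA. These had at least 542, 536, 320 and 1221 reads with any end in every brain, but too few that ended in CCA or CC. The charging fit thus held 4 of the 8 light-strand tRNAs tested for abundance. Adjusted p-values are Benjamini-Hochberg values over all anticodons of a fit, and the threshold was 0.05. The abundance and charging fits of sex were tested on simulated data, with effects larger than those estimated here for anticodons. Charging was simulated with separate noise for each anticodon and without a shift shared within a brain. How the charging fit handles such a shift was therefore not tested, and the interaction fits were not simulated. Whole-brain values used two-sided exact permutation tests within each age (36 relabellings).

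Named anticodons were those with the 5 smallest p-values of each genome in the abundance and charging fits, the highest and lowest estimates, and the 5 smallest p-values of each other fit. The comparison, lists and rules were chosen with earlier results of these data known. Alternatives were DESeq2 1.42.0, library size scaling, no or other read minimums, separate fits of the genomes, sex alone, the replicate number as a block, transcripts, all 4 end classes, pseudocount 5 and each brain left out. Transcripts for abundance and the share without serine, threonine and selenocysteine were added after the data were seen.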

Additional observations from a re-analysis of the deposited data

Results flagged for a closer look

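In each sex the highest and the lowest of the 4 brains were compared with the other brains by Dixon's ratio, for the measures named above. Of 64 such sets of 4 brains, 2 held a brain far from the rest, and chance flags about 1 in 20 sets of 4 like samples. Each set joined 2 young and 2 old brains, so that differences with age enter the ratio and this rate is only a rough guide. The share of nuclear reads ending in C was 24.6% in old female 1 and between 6.35 and 9.20% in the other females. The charged share of mt-Asp-GTC was 66.1% in young female 2 and between 74.0 and 75.3% in the other females.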

How the results depend on the processing

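Under the 61 alternative fits, 0 anticodons or transcripts passed the adjustment in any comparison of the sexes. Calls at an unadjusted p under 0.05 ranged from 0 to 6 for abundance, 0 for charging, 0 to 9 for relative charging (9 without old female 1), 1 to 5 for the change of the abundance difference with age and 0 to 4 for that of charging. The lowest adjusted p over all alternatives was 0.0656, for the change of the abundance difference with age without old male 1. Of 174 estimates of named anticodons under other settings, 0 changed sign, but some of them could not change. The minimums of 20 and 500 reads kept the same 64 anticodons, so that these fits, counted among the 61, repeat the main charging fits. The replicate block cannot move a relative charging estimate, since each block holds 1 female and 1 male brain. Of 296 estimates with a brain left out, 2 changed sign: mt-Met-CAT abundance (−0.298 to 0.039, above 0 without old male 1) and Arg-CCT charging (−0.109 to 0.399, below 0 without old female 2). Leaving out a brain moved 27 of the 37 named estimates by over 1.5 times in at least 1 case, among them all 12 of charging and 7 of 10 of abundance. The nuclear difference without serine, threonine and selenocysteine was −0.0717 points; these anticodons were chosen for their low values, which fixes the direction. With each brain left out in turn, the female minus male difference ranged from −5.95 to 4.07 points for the nuclear charged share, changing sign in 4 of 8 cases, from −0.344 to 0.518 points for the mitochondrial share of reads, and from −2.30 to 6.63 points for nuclear C ends. Replicate numbers are shared between the sexes, but across anticodons same-numbered brains did not deviate together at both ages. The r was 0.287 young and −0.157 old for abundance, 0.590 and 0.0490 for charging, and 0.622 and −0.643 for relative charging. From this r the numbers were not taken as pairs in the main fits, but it cannot see a shift that all anticodons of a brain share. The nuclear charged share did go together by number. It was higher in replicate 1 than in replicate 2 of young males (70.1 and 60.0%) and young females (66.8 and 60.4%). In old males (51.7 and 56.5%) and old females (43.7 and 63.8%) it was lower in replicate 1. The nuclear C ends ran the other way in each group. Whether the numbers mark a shared handling was not tested. The mitochondrial charged share was higher in replicate 1 than in replicate 2 of young males (76.9 and 70.5%), young females (76.1 and 70.9%) and old males (76.0 and 71.4%). In old females it was lower (76.9 and 77.7%). In fits with the replicate block, 0 calls were made for abundance, charging or relative charging, beside 1, 0 and 1 at an unadjusted p under 0.05. Whole-brain sign-flip p-values with the replicate block were 0.75, 0.375, 1.0 and 0.625 (exact, smallest possible 0.125) for the nuclear and mitochondrial charged shares, the mitochondrial share of reads and the C ends, at unchanged differences of −0.936, 1.68, 0.0869 and 2.16 points. The effect of depth was not tested.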
